A study of Mus musculus with 6 samples.

Results

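The Myc, Max and Mxd network was examined in macrophages from mice in which the mitotic checkpoint kinase gene Bub1 was deleted in myeloid cells. Its 10 members (Myc, Max, Mxd1, Mxd3, Mxd4, Mxi1, Mnt, Mga, Mlx and Mycbp) were taken by symbol from the 15982 genes of the authors' deposited table, and all 10 were present. The cells were primary bone marrow-derived macrophages from control mice (Ctrl) and from mice with a myeloid-specific deletion of Bub1 (Bub1 cKO). Cells of both genotypes had been precultured with M-CSF (20 ng/ml) over 3 days and then held over 2 days with M-CSF at the same 20 ng/ml plus RANKL at 50 ng/ml, which starts osteoclast formation. The labels list 3 libraries per genotype, made from the 3' ends of transcripts, and do not say whether they came from separate animals, so p-values measure only how these libraries vary, which may be technical. The sources used here give neither the Cre driver, the deleted exons nor the age of the mice.

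The authors' deposited table gives 1 value per gene and genotype, read as TPM (a share of all transcripts that corrects for their length), and values per library were not used here. It also gives a log2 change, which is log2 of (Bub1 cKO + 1)/(Ctrl + 1) of the group values, and the statistic and standard error of the authors' test. The statistic times the standard error is called the fitted log2 change below, with its 95% interval. This takes the statistic to be an estimate divided by that standard error, which the sources used here do not state. A gene was called at an adjusted p under 0.05 per the authors' deposited table. Bub1 itself stood at 6.73 TPM (Ctrl) and 5.32 TPM (Bub1 cKO), with an adjusted p of 0.985 per the authors' deposited table, which is no check of the labels, since reads near the 3' end may lie outside the deleted exons.

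Myc is a transcription factor that drives cell growth, ribosome production and metabolism, and it binds DNA only as a dimer with Max. Mxd1, Mxd3, Mxd4 and Mxi1, together with Mnt and Mga, also pair with Max and occupy the same E-box sequence, where the Mxd proteins and Mnt recruit the Sin3 corepressor and oppose Myc. Mlx is a second hub, which pairs with the glucose-sensing factors MondoA and ChREBP and with some Mxd proteins. In mouse macrophages RANKL is known to induce Myc, which is needed for osteoclast formation.

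The E-box, CACGTG, reads the same on both strands, and it was searched from 250 bases before to 50 bases after each RefSeq gene start (GRCm38.p6). The table of windows held 9 of the members, in 11 windows, and not Myc. The motif was found in Max, Mlx, Mnt and Mxd4, that is in 4 of 11 windows, beside 7.15% of all 32851 windows of the same length. By gene the share was 44.4% of the members and 12.2% of 7979 genes at 1 TPM or more on average. These 120-base stretches are shown because they hold the motif through which the network's own products bind DNA. They run 5′ to 3′ on the strand of the gene, with the E-box in capitals. Max lies at chr12:76962219-76962338 on the minus strand and Mlx at chr11:101087193-101087312 on the plus strand. Mnt lies at chr11:74830744-74830863 on the plus strand and Mxd4 at chr5:34187841-34187960 on the minus strand.
Max: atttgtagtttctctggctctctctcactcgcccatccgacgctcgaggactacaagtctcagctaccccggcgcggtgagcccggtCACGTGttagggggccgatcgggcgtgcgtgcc
Mlx: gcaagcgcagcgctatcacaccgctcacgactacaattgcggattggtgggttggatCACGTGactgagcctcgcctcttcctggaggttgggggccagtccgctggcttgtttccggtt
Mnt: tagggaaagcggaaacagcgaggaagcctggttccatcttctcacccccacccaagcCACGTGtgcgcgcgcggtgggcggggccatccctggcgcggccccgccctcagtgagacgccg
Mxd4: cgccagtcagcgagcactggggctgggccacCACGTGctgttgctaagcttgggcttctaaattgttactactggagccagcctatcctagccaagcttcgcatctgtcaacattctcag
Counted from the RefSeq start, the motif begins 3 bases before it in Max, 40 before it in Mlx, 123 before it in Mnt and 219 before it in Mxd4. For Max the RefSeq start lies before that of GENCODE M21, so the stretch shown is outside the gene as GENCODE gives it. A match in such a window is a description of the letters and not a measured binding site.

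No member passed the adjusted p, beside 0.181% of all genes in the table. A single member, Mxd4, had an unadjusted p under 0.05, that is 1 of 10 beside 4.81% of all genes and 6.27% of the 10881 genes at 1 TPM or more on average, a share close to the background. By the sign of the statistic the members were evenly divided: Myc, Max, Mlx, Mxd1 and Mycbp had a positive statistic (fitted change above 0), and Mxd3, Mxd4, Mxi1, Mnt and Mga a negative one. The group values of Mycbp and Mnt went against their statistics. The median log2 change over the 10 was -0.07, beside -0.01 over genes of at least 1 TPM, while the median fitted log2 change was 0.08 and the median statistic 0.27, so the signs differ.

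**Figure D1:**
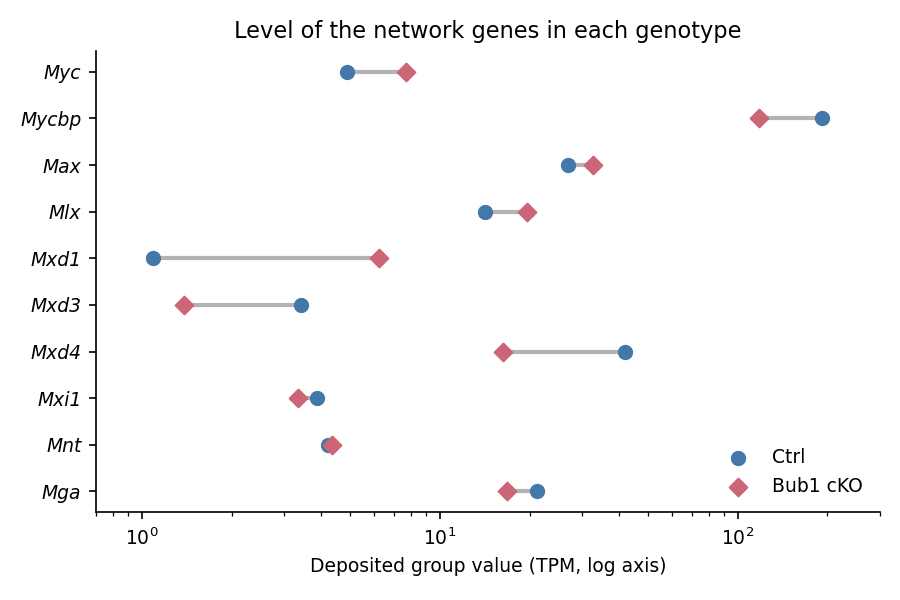
Deposited group value of each member (TPM, log axis) in Ctrl (circles) and Bub1 cKO (diamonds), 1 value per genotype. Mycbp was the most abundant member in both genotypes, and Mxd4 stood at 42.0 TPM (Ctrl) and 16.3 TPM (Bub1 cKO).

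Myc was a gene of middle abundance in these cells. The authors' deposited table has it at 4.88 TPM (Ctrl) and 7.69 TPM (Bub1 cKO), a ratio of 1.58, and its mean exceeded that of 59.2% of the genes listed. The higher value was in Bub1 cKO, but the fitted log2 change of 0.72 had a 95% interval from -0.32 to 1.75 (unadjusted p = 0.174 and adjusted p = 0.985 per the authors' deposited table). A modest fall, no change and a rise of more than 3-fold all lie inside that interval. Myc spans 61985391 to 61990374 on the plus strand of chromosome 15 in GENCODE M21 (GRCm38), the annotation used for the spans of genes here; the windows around gene starts are from RefSeq.

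Max, the shared partner, was more abundant than Myc in both genotypes, at 26.9 TPM (Ctrl) and 32.6 TPM (Bub1 cKO) per the authors' deposited table. Its values differed little, and the 95% interval of the fitted log2 change ran from -0.32 to 0.86 around 0.27. The level of Myc relative to Max was 0.182 in Ctrl and 0.236 in Bub1 cKO, on the TPM scale, and depends on its division by length. Max spans 76937269 to 76962201 on the minus strand of chromosome 12.

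Mlx, the hub of the parallel network, was at 14.2 TPM (Ctrl) and 19.6 TPM (Bub1 cKO) per the authors' deposited table. The fitted log2 change was 0.29, with a 95% interval from -0.42 to 1.01, so no difference was detected. Mlx shares 385 bases with Psmc3ip on the opposite strand, a gene at 4.03 TPM (Ctrl) and 3.36 TPM (Bub1 cKO). The sources used here do not say whether the counting used strand, and without it the reads of the shared stretch cannot be told apart.

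Mxd4, a repressor of the family that is known from quiescent and differentiating cells, had the smallest p of the members. It stood at 42.0 TPM (Ctrl) and 16.3 TPM (Bub1 cKO) per the authors' deposited table, a level 2.58-fold higher in Ctrl. The deposited log2 change was -1.31, and the fitted log2 change was smaller in size, -0.81, with a standard error of 0.32 and a 95% interval from -1.45 to -0.18. Its unadjusted p was 0.012 and its adjusted p 0.735 per the authors' deposited table, so Mxd4 did not pass over all genes. The gap between the deposited and the fitted change was 1.54 standard errors. Mxd4 spans 34173883 to 34187720 on the minus strand of chromosome 5, and 1001 of these bases are shared with the antisense gene Gm42846, which is not among the genes listed.

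Mxd1, a repressor induced as myeloid cells differentiate, had values in the other direction. The authors' deposited table has it at 1.09 TPM (Ctrl) and 6.25 TPM (Bub1 cKO), a ratio of 5.72 and a deposited log2 change of 1.79. The fitted log2 change was smaller, 0.73, with a 95% interval from -0.69 to 2.15 (unadjusted p = 0.314 per the authors' deposited table). The deposited change exceeded the fitted one by 1.47 standard errors, so the size of this difference depends on which of these quantities is read.

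Mxd3, a repressor known from proliferating cells, was the least abundant member by its mean, at 3.42 TPM (Ctrl) and 1.38 TPM (Bub1 cKO) per the authors' deposited table. Its standard error of 1.10 was the largest of the members, and the 95% interval of the fitted log2 change ran from -3.47 to 0.84. The 3' end of Mxd3 shares 105 bases with Prelid1 on the opposite strand, which stood at 89.8 and 86.0 TPM. Mxi1, another member of the Mxd family, differed little, with 3.86 TPM (Ctrl) and 3.33 TPM (Bub1 cKO) per the authors' deposited table, and a 95% interval from -1.02 to 0.61.

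Mnt, the broadly expressed Max partner that acts as a general antagonist of Myc, had nearly the same value in both genotypes, 4.22 TPM (Ctrl) and 4.35 TPM (Bub1 cKO) per the authors' deposited table. The signs disagreed, with a deposited log2 change of 0.03 and a statistic of -0.27 per the authors' deposited table. For Mnt the 95% interval of the fitted log2 change ran from -0.97 to 0.73.

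Mga, a very large protein with a T-box besides its Max-binding domain and the scaffold of the Polycomb complex PRC1.6, was at 21.2 TPM (Ctrl) and 16.7 TPM (Bub1 cKO) per the authors' deposited table. It was the most precisely measured member, with a standard error of 0.25, and the 95% interval of the fitted log2 change ran from -0.64 to 0.33. Changes larger than these bounds lie outside the interval. Mga lies on chromosome 2, as Bub1 does, with its end at 119969581 and 7.83 Mb before the lowest coordinate of Bub1, 127801122. The part of variants near the deleted gene was not tested.

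Mycbp, a small protein that binds the amino terminus of Myc and enhances its activity, was the most abundant member, at 192 TPM (Ctrl) and 118 TPM (Bub1 cKO) per the authors' deposited table. The group values were lower in Bub1 cKO, with a deposited log2 change of -0.69, while the statistic was positive, 1.02 per the authors' deposited table. The fitted log2 change was 0.43, with a 95% interval from -0.39 to 1.25, and the deposited change lies 2.68 standard errors below it. No direction can therefore be given for Mycbp.

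**Figure D2:**
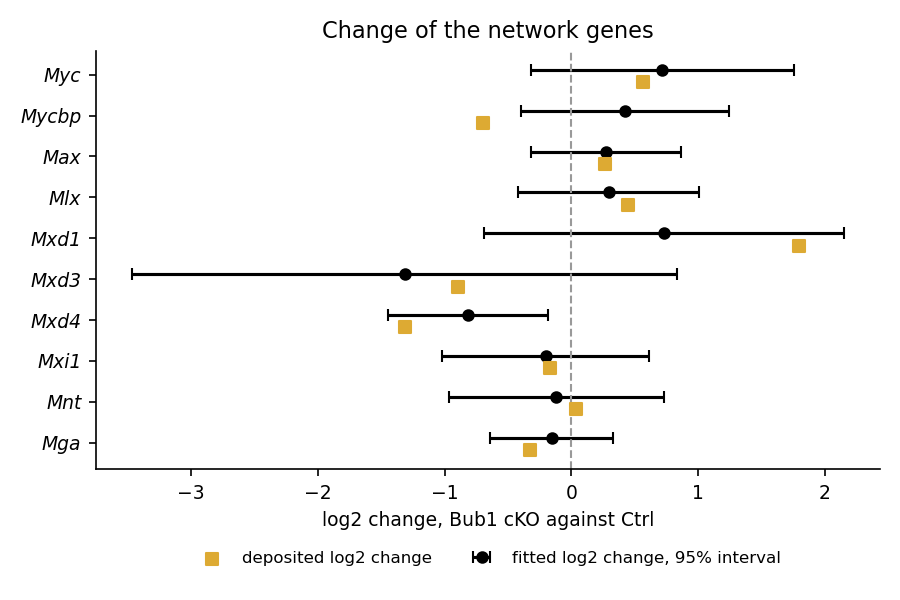
The log2 change of each member, Bub1 cKO against Ctrl, as the fitted value with its 95% interval (circles and bars) and as deposited (squares). The interval excludes 0 in Mxd4 only, before adjustment, and the deposited value of Mycbp lies outside its interval.

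The balance of Myc and its antagonists was described on the TPM scale, without a test, since each genotype has 1 value. This scale divides by transcript length although the libraries were made from 3' ends. The sums, shares and ratios below depend on that division. The summed level of Mxd1, Mxd3, Mxd4 and Mxi1 was 50.4 TPM (Ctrl) and 27.3 TPM (Bub1 cKO). Mxd4 made up 83.4% of that sum in Ctrl and 59.8% in Bub1 cKO. The ratio of Myc to the sum was 0.0968 in Ctrl and 0.282 in Bub1 cKO. Without Mxd4 the sum was 8.37 TPM (Ctrl) and 11.0 TPM (Bub1 cKO) and the ratio 0.583 and 0.702. With Mnt and Mga added to all 4, the sum was 75.8 TPM (Ctrl) and 48.3 TPM (Bub1 cKO) and the ratio 0.0643 and 0.159. Mxd4 then made up 55.4% of the sum in Ctrl and 33.7% in Bub1 cKO. These sums use the group values, of which those of Mxd4 and Mxd1 differ more between the genotypes than their fitted changes. For Mxd4, the largest part of the sum, the deposited log2 change was -1.31 and the fitted one -0.81, a gap of 1.54 standard errors. For Mxd1 the gap was 1.47 standard errors.

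Ordered by level in Ctrl, the members ran Mycbp, Mxd4, Max, Mga, Mlx, Myc, Mnt, Mxi1, Mxd3 and Mxd1. In Bub1 cKO the order was Mycbp, Max, Mlx, Mga, Mxd4, Myc, Mxd1, Mnt, Mxi1 and Mxd3. Mxd4 went from the second place to the fifth and Mxd1 from the tenth to the seventh. Without values per library, it cannot be said which neighbours in these orders differ beyond their spread. The coding transcripts of Mga reach 13931 bases and those of Mycbp only 1685, so a value divided by length places Mga lower relative to Mycbp than its number of 3' tags would.

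Other factors that share the E-box or the dimer partners were measured next, in a list of 6. Of these, Mycn was not listed and Mlxipl stayed below a mean of 1 TPM. Of the 4 tested, 1 had a positive statistic and 3 a negative one, and none was called. Usf2, an E-box factor outside the Max network, was at 122 TPM (Ctrl) and 105 TPM (Bub1 cKO) (unadjusted p = 0.021 per the authors' deposited table). Mycl, a paralog of Myc, was at 3.12 and 1.28 TPM, and Mlxip, which encodes MondoA, at 3.17 and 3.06 TPM, in Ctrl and Bub1 cKO per the authors' deposited table.

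Genes listed as activated by Myc lay mostly on the higher side in Bub1 cKO. Of 54 tested targets 47 had a positive statistic and 7 a negative one, a share of 87.0% where all genes of at least 1 TPM gave 49.6%. Their median log2 change was 0.29 beside -0.01. Of the 54, 14 lay higher and 0 lower with an unadjusted p under 0.05, where 3.06% of genes of at least 1 TPM were higher and 3.21% lower. After adjustment over all genes 1 target was called, Tfrc, beside 0.257% of those genes. Because these targets are abundant, they were also set beside genes of at least 10 TPM, a level chosen after seeing the data: 14 of 46 such targets were higher at that p, against 4.28% of the genes. The list and its members were chosen with earlier results of these data known, and no set test was made.

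Tfrc encodes the receptor that takes up transferrin-bound iron, and it rose from 25.7 TPM (Ctrl) to 56.5 TPM (Bub1 cKO), with a standard error of 0.21 (adjusted p = 0.00018) per the authors' deposited table. Ncl, which encodes nucleolin of the nucleolus, was at 671 and 821 TPM, with an adjusted p of 0.263 per the authors' deposited table. Ddx21, an RNA helicase of ribosomal RNA production, was at 35.0 and 52.4 TPM, with an adjusted p of 0.275 per the authors' deposited table. The values of these 3 genes were all higher in Bub1 cKO, and the fitted log2 changes were 1.16 for Tfrc, 0.38 for Ncl and 0.58 for Ddx21.

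All other targets named here and in the next paragraphs were chosen after their values were seen. Per the authors' deposited table Nop56 and Nop58, proteins of the particles that methylate ribosomal RNA, were at 116 and 262 TPM (Ctrl) and at 160 and 384 TPM (Bub1 cKO). Gnl3, the nucleolar GTPase nucleostemin, was at 159 and 227 TPM, and Nolc1 at 23.9 and 45.7 TPM, in Ctrl and Bub1 cKO per the authors' deposited table. Dkc1, the pseudouridine synthase dyskerin, was at 131 and 174 TPM, and Wdr43 at 23.3 and 32.1 TPM, per the authors' deposited table. Each of these genes was higher in Bub1 cKO by less than 2-fold in its group values, and none passed over all genes. Other nucleolar genes of the list had larger p: Fbl, the methyltransferase fibrillarin, was at 77.2 and 85.0 TPM, and Bop1, of ribosome assembly, at 6.67 and 4.97 TPM, per the authors' deposited table (unadjusted p = 0.583 and 0.382).

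The polyamine enzymes among the targets behaved alike in their group values. Odc1, the rate-limiting enzyme of polyamine synthesis, was at 30.5 TPM (Ctrl) and 45.2 TPM (Bub1 cKO), and the spermidine synthase Srm at 37.6 and 58.4 TPM, per the authors' deposited table (unadjusted p = 0.026 and 0.047). The mitochondrial chaperonin genes Hspd1 and Hspe1 were at 137 and 320 TPM (Ctrl) and at 181 and 422 TPM (Bub1 cKO) per the authors' deposited table. Both had adjusted p above 0.6, namely 0.641 and 0.687 per the authors' deposited table.

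The cell cycle target Ccnd2, which encodes cyclin D2, stood out by its group values, 0.838 TPM (Ctrl) and 55.3 TPM (Bub1 cKO) per the authors' deposited table. The fitted log2 change was 1.76 where the deposited one was 4.94, and the adjusted p was 0.445 per the authors' deposited table. Slc3a2, an amino acid transporter subunit, was at 70.1 and 232 TPM, but had a statistic of 0.13 per the authors' deposited table. Other targets had values close together: the glycolytic Ldha was at 176 and 161 TPM, Cad, of pyrimidine synthesis, at 3.68 and 3.75 TPM, and Npm1, the abundant nucleolar nucleophosmin, at 638 and 706 TPM per the authors' deposited table. The 7 targets with a negative statistic were Bop1, Ldha, Nme2, Utp20, Mrto4, Slc7a5 and C1qbp.

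**Figure D3:**
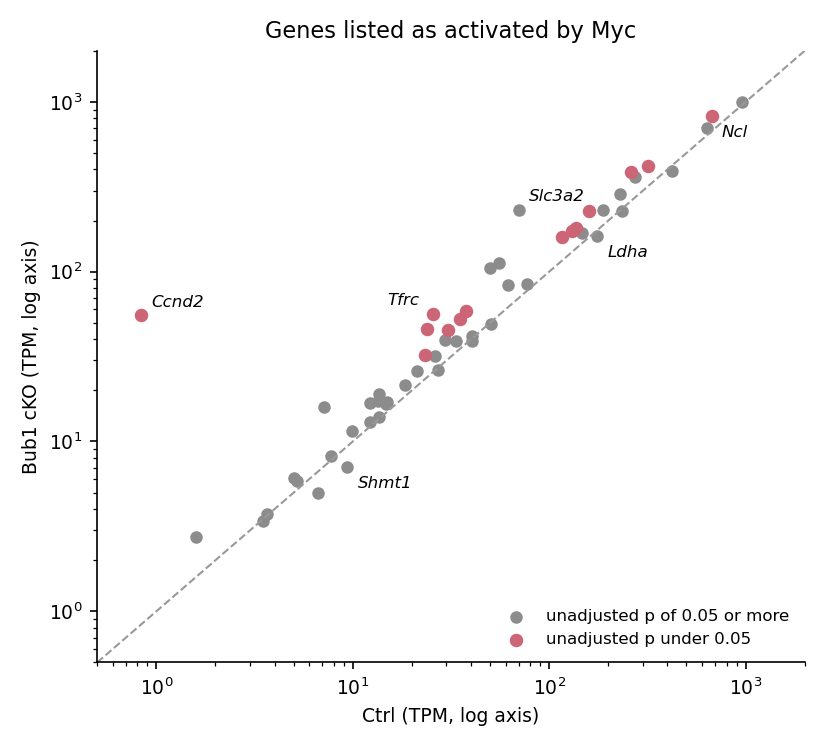
Deposited values of 54 genes listed as activated by Myc, Ctrl against Bub1 cKO (TPM, log axes), with the dashed line at equal values. The 14 genes with an unadjusted p under 0.05 lie above the line, and Ccnd2 and Slc3a2 lie far from it, with statistics of 2.92 and 0.13.

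The E-box was found in the windows of 15 of the 47 listed activated targets in the table of windows, 31.9% beside 12.2% of genes of at least 1 TPM. Among the targets below an unadjusted p of 0.05, 12 had a window and 2 of these, Hspd1 and Wdr43, held the motif (16.7%), beside 13 of 34 other targets in the deposited table (38.2%). The motif was thus not more common in the targets with the smaller p. Hspd1 and Wdr43 are shown as above, as examples of target windows with the motif. Hspd1 lies at chr1:55088261-55088380 on the minus strand, with the motif 80 bases before the start, and Wdr43 at chr17:71616125-71616244 on the plus strand, with the motif at base 18 after it.
Hspd1: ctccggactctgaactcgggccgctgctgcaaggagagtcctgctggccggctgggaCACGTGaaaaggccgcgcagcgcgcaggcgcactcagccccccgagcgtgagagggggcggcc
Wdr43: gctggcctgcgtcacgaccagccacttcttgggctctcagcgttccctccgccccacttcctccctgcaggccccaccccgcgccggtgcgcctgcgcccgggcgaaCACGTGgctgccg

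Tested markers of erythroid cells and neutrophils had positive statistics in the same comparison. The summed levels of B cell, T and NK cell and stromal markers were lower in Bub1 cKO, but few of these genes reached 1 TPM. Of the 4 tested stromal markers 2 had a positive statistic and 2 a negative one, and Pecam1 made up most of the stromal sum. Per the authors' deposited table the beta-globin genes Hbb-bs and Hbb-bt passed with adjusted p of 0.00017 and 0.025, and the neutrophil receptor gene Cxcr2 with 0.036. All 5 tested erythroid markers of 10 listed had a positive statistic, and the summed level of the 7 present was 19.9 TPM (Ctrl) and 358 TPM (Bub1 cKO), with Alas2 and Slc4a1 at 0 in Ctrl, Epb42 at 0 in Bub1 cKO, and Klf1 and Ahsp among those not listed. All 6 tested neutrophil markers of 12 had a positive statistic, with a summed level over the 11 present of 102 TPM and 241 TPM, and Camp, Elane and Retnlg at 0 in Ctrl. Of the 6 tested, Ltf had group values of the other direction, 12.3 and 6.74 TPM, and Mmp8 was at 6.44 and 7.27 TPM per the authors' deposited table, both chosen after their values were seen. The alpha-globin gene Hba-a2 was at 8.83 and 169 TPM, and the calprotectin genes S100a9 and S100a8 at 38.0 and 115 TPM and at 41.9 and 92.8 TPM, per the authors' deposited table. The part of such cells in the values of the Myc targets was not tested. Without Tfrc, which erythroid precursors use heavily, 46 of 53 targets had a positive statistic. Leaving out 1 gene could hardly change this count, so it does not bear on the part of such cells. B cell markers summed to 4.76 and 3.77 TPM and T and NK cell markers to 1.27 and 0.407 TPM, and 1 gene of these lists, the B cell factor Ebf1, reached a mean of 1 TPM (3.34 and 3.34 TPM per the authors' deposited table). Stromal and endothelial markers summed to 246 and 167 TPM, of which Pecam1 had 240.2 and 161 TPM, Runx2 1.37 and 0.865 TPM and Col1a1 1.06 and 1.55 TPM per the authors' deposited table. In bulk RNA, fewer cells of a type and less RNA per cell cannot be told apart.

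Most of the listed proliferation markers had a negative statistic. Of 16 proliferation markers 5 had a positive statistic and 11 a negative one, with a median log2 change of -0.22, and none was called. At an unadjusted p under 0.05, 1 was higher and 3 were lower, beside 3.06% and 3.21% of genes of at least 1 TPM. Mcm6, of the replicative helicase, was at 23.6 and 33.3 TPM, while the mitotic kinase genes Cdk1 and Plk1 were at 115 and 85.1 TPM and at 29.4 and 20.2 TPM, in Ctrl and Bub1 cKO per the authors' deposited table. The difference between this list and the activated targets was not tested.

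Genes listed as repressed by Myc had more negative than positive statistics, in a small list. Of 18 listed 12 were tested, 4 with a positive statistic (33.3%, beside 49.6% of genes of at least 1 TPM) and 8 with a negative one. Their median log2 change was -0.39, and none was called. With no filter on low values the median was -0.15. Below an unadjusted p of 0.05 were 1 higher and 2 lower genes, beside 3.06% and 3.21% of genes of at least 1 TPM. Ccng2, a cyclin of resting cells, was at 4.16 TPM (Ctrl) and 0.491 TPM (Bub1 cKO), with an adjusted p of 0.187 per the authors' deposited table. Btg1, which restrains proliferation, was at 25.5 and 17.8 TPM, and Hmox1, the heme-degrading enzyme, at 23.6 and 38.3 TPM per the authors' deposited table. Cdkn1a, the cell cycle inhibitor p21 and a gene often named in this group, was at 104 and 110 TPM per the authors' deposited table and was chosen after seeing these values.

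Proteins that work with the members at promoters showed no common direction. Of 19 tested Myc coactivators 10 had a positive statistic and 9 a negative one, and none was below an unadjusted p of 0.05. The smallest p belonged to Zbtb17, which encodes Miz1, the factor through which Myc represses genes, at 4.21 TPM (Ctrl) and 2.49 TPM (Bub1 cKO) per the authors' deposited table. Smarcb1, of the SWI/SNF remodeller, was at 11.8 and 17.1 TPM, and Ccnt1, the cyclin of the elongation kinase, at 42.8 and 51.6 TPM. The fitted log2 changes of the coactivators had a median of 0.00, where the deposited ones had -0.26.

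Of 20 subunits and partners of the Sin3 corepressor, 8 had a positive statistic and 12 a negative one, with a median log2 change of -0.005. At an unadjusted p under 0.05, 1 was higher and 1 lower, beside 3.06% and 3.21% of genes of at least 1 TPM, and none was called. The deacetylase Hdac1 was at 65.1 TPM (Ctrl) and 106 TPM (Bub1 cKO), and Ogt, the enzyme that adds GlcNAc to proteins, at 9.77 and 4.67 TPM per the authors' deposited table. Ing1, a histone-binding subunit, was at 32.2 and 24.0 TPM. Among 14 genes of the Mga complex PRC1.6, which also holds Hdac1, 8 had a positive statistic and 6 a negative one. In the complex 1 gene (7.14%) was below an unadjusted p of 0.05, beside 6.27% of genes of at least 1 TPM. Its chromatin-binding subunit Cbx3 was at 954 and 1183 TPM and E2f6, which pairs with DP proteins in the complex, at 4.49 and 7.10 TPM per the authors' deposited table.

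Regulators of Myc protein stability had a positive statistic in 12 of 18 tested cases, 66.7%, where the share over every gene at or above 1 TPM was 49.6%. Their median log2 change was 0.01, close to that of all genes, and in 4 of them the sign of the group values was opposite to that of the statistic. The widest such gap was in Axin1, a scaffold of the complex that marks Myc for degradation, chosen after its values were seen: it was at 23.0 TPM (Ctrl) and 3.80 TPM (Bub1 cKO) with a statistic of 0.31, per the authors' deposited table. Below an unadjusted p of 0.05 were 2 higher genes and 0 lower ones, beside 3.06% and 3.21% of genes of at least 1 TPM, and none was called. Set, an inhibitor of the phosphatase PP2A, was at 361 TPM (Ctrl) and 470 TPM (Bub1 cKO), with an adjusted p of 0.411 per the authors' deposited table. Usp36, a nucleolar deubiquitinase that stabilises Myc, was at 7.67 and 13.3 TPM per the authors' deposited table. RNA values say nothing of the level of Myc protein.

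**Figure D4:**
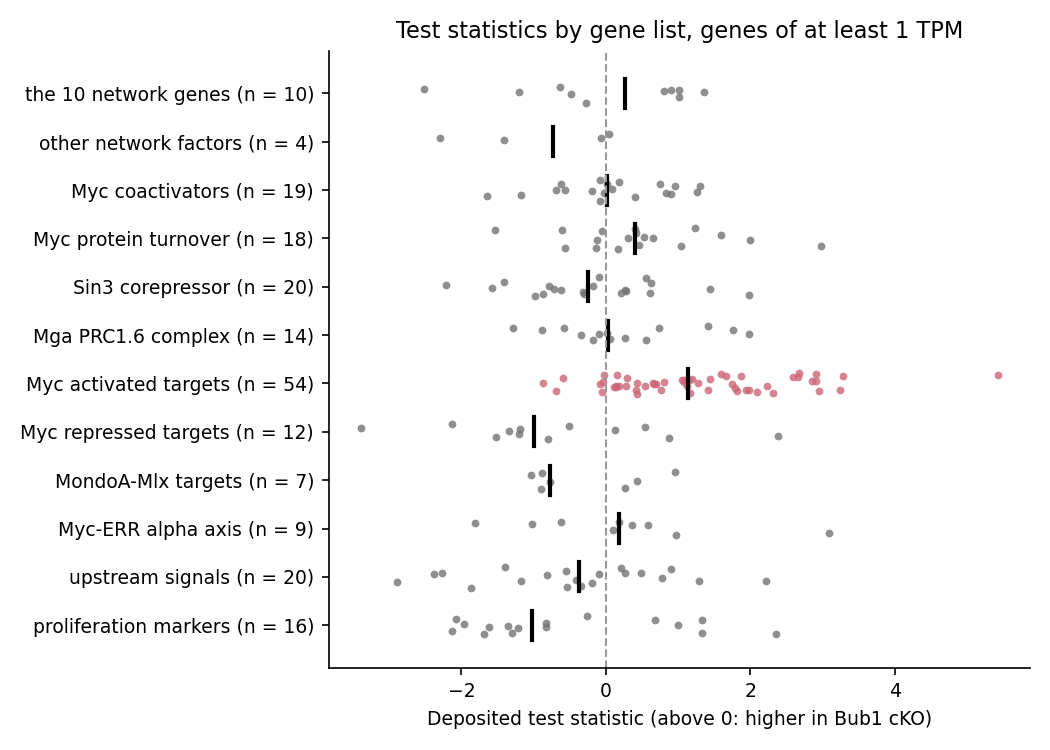
Deposited test statistic of every gene of at least 1 TPM in the network, in 10 partner and target lists and in the proliferation markers, with the median of each list as a bar. The activated targets have a median statistic of 1.14, while the medians of the coactivators and of the PRC1.6 list lie near 0.

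Signals upstream of Myc were also listed. Of 20 tested genes 7 had a positive statistic (35.0%, beside 49.6% of genes of at least 1 TPM) and 13 a negative one, with none called. With an unadjusted p under 0.05, 1 was higher and 3 were lower, beside 3.06% and 3.21% of genes of at least 1 TPM. Among the lower genes were the M-CSF receptor gene Csf1r, at 116 and 96.7 TPM, and the kinase gene Mapk3, at 77.7 and 34.8 TPM per the authors' deposited table. The higher gene was Ccnd1, a cell cycle gene rather than a signal, which encodes cyclin D1. It was at 70.8 and 93.9 TPM and was chosen after its values were seen.

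The Myc and ERR alpha axis links Myc to mitochondrial respiration in osteoclast formation. Of its 9 tested genes 6 had a positive statistic and 3 a negative one, and none was called. With an unadjusted p under 0.05, 1 was higher, beside 3.06% of genes of at least 1 TPM. The median log2 change was -0.02 and the median statistic 0.18. Cycs, cytochrome c, was at 19.9 TPM (Ctrl) and 32.1 TPM (Bub1 cKO), with an adjusted p of 0.342 per the authors' deposited table. Esrra, the gene of ERR alpha itself, was at 8.09 and 5.59 TPM, and Acadm, of fatty acid oxidation, at 277 and 201 TPM. Genes bound by Mlx with MondoA or ChREBP were tested in 7 cases, with 3 positive and 4 negative statistics and 0 below an unadjusted p of 0.05. Their median log2 change was 0.14 and their median statistic -0.77, so the signs differ. Txnip, their best known target and a brake on glucose uptake, was at 215 and 168 TPM per the authors' deposited table. Klf10, a zinc-finger factor, was at 1050.4 and 944 TPM, and Fasn, of fatty acid synthesis, at 1.76 and 2.37 TPM.

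The labelled cell type was checked against its markers. All 10 macrophage markers and all 10 osteoclast markers reached a mean of 1 TPM. Lyz2, the macrophage lysozyme, was at 2141 TPM (Ctrl) and 762 TPM (Bub1 cKO) (adjusted p = 0.00033 per the authors' deposited table). It was the only macrophage marker called. The Cre driver is not given, and a part of the driver allele in the Lyz2 value was not tested. Of the 10 macrophage markers 8 had a negative statistic, among them Csf1r and the integrin gene Itgam (36.3 and 27.1 TPM). With an unadjusted p under 0.05, 1 was higher and 4 were lower, beside 3.06% and 3.21% of genes of at least 1 TPM. The higher one was Cd68, at 260 and 306 TPM per the authors' deposited table, chosen after its values were seen. Of the osteoclast markers 8 had a positive statistic, and 5 were higher at an unadjusted p under 0.05, among them Nfatc1, the master factor of osteoclasts, the fusion gene Ocstamp and the protease gene Ctsk, at 48.7 and 73.3, 11.1 and 22.1, and 537 and 696 TPM per the authors' deposited table. Their part in the values of the network was not tested.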

How the data were processed

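The 1 deposited table compares Bub1 cKO with Ctrl for 15982 genes, and per the file headers it comes from RaNA-seq, a web service. Not given in the sources used here are the aligner, build, annotation and test. The deposited group values carry no unit and were taken as TPM, since they sum to 999891 in Ctrl and 999954 in Bub1 cKO, though CPM would sum alike. The deposited log2 change equals log2 of the ratio of group values with a pseudocount of 1, within 0.002 in 15982 genes. The deposited statistic and its error were taken as scores from the authors' test, and the deposited p-value and adjusted p are theirs. Depth per library is unknown, and the standard error stands for precision. 95% intervals are the fitted log2 change with a normal error. Python 3.11.15, pandas 2.3.3 and scipy 1.17.1 were used. Where p was adjusted again, the Benjamini-Hochberg step had been tested on simulated data. Lists count genes of 1 TPM or more on average, and the highest mean was kept where a symbol repeated.

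The members and the 18 lists were chosen with earlier results of these data known. All members are named, and of each list the 3 genes with the smallest p, apart from some that are not reported here; any other gene is marked as chosen after seeing its value. Genes alike in pattern were not named, because 1 value per genotype holds no pattern over samples. Of the gene IDs 15910 were found in GENCODE M21 without their version and 14622 with it. Alternatives were other pseudocounts, the fitted log2 change, a centred scale, p adjusted over fewer genes and other filters.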

Additional observations from a re-analysis of the deposited data

How the results depend on the processing

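Of 40 member values recomputed with a pseudocount of 0.5 or 5, as the fitted log2 change or centred on the median, 38 kept their sign. The same pseudocount in both groups cannot change a sign, and the median used for centring was only -0.008. Only the fitted log2 change could readily change a sign, and it did so in 2 of 10 members. The exceptions were the fitted log2 change of Mnt (-0.12) and of Mycbp (0.43). No member passed with p readjusted over genes of 1, 5 or 10 TPM and more, the last chosen after seeing the data, and the adjusted p of Mxd4 was then 0.549, 0.441 and 0.385. With 0.01 as the limit of the unadjusted p, 0 members passed, against 1 at 0.05. List medians moved as follows. With no filter on low values they were -0.21 for other network factors, -0.15 for repressed targets and -0.061 for Mlx targets. Over genes of at least 5 TPM they were -0.21 for other network factors, 0.17 for protein turnover and -0.26 for Mlx targets. By the fitted log2 change they were 0.004 for coactivators, 0.093 for protein turnover, 0.007 for PRC1.6 and -0.18 for Mlx targets. The median of the activated targets stayed between 0.28 and 0.33 in the alternatives chosen after seeing the data. These were without Tfrc, at 10 TPM or more, and without the 7 targets whose 2 log2 changes differ by over 1 standard error. In the last, 40 of 47 statistics were positive. Leaving out 1 gene could hardly move this median, and the other alternatives kept most of the same targets. No paired analysis was possible because the table has 1 value per genotype, and leaving out replicates or using another normalization was not run for the same reason.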

Other observations

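The deposited group values and the authors' test part ways in several genes of the network. Over the whole table the sign of the deposited log2 change is opposite to that of the statistic in 1519 of 15982 genes, and among the members in 2 of 10, Mycbp and Mnt. A gap of over 1 standard error was found in 3 of the 10 members, Mxd1, Mxd4 and Mycbp, and in 1265 of the 10881 genes of at least 1 TPM. Among the activated targets Eif4e, the cap-binding factor of translation, went from 50.1 to 106 TPM with a fitted log2 change of 0.33, and Mybbp1a, a nucleolar Myb-binding protein, from 55.8 to 113 TPM with 0.24, per the authors' deposited table. Both were chosen after their values were seen. Mxd1, Slc3a2, Eif4e and Mybbp1a share a group ratio of about 2 or more with an unadjusted p above 0.05.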
